A study of Drosophila melanogaster with 6 samples.

Results

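The semaphorins and plexins of L3 neurons were 7 genes, Sema1a, Sema1b, Sema2a, Sema2b, Sema5c, PlexA and PlexB, among 13727 genes in the authors' deposited table. They were chosen by name. The study sorted fluorescently labelled L3 neurons, a neuron type of the lamina in the fly visual system, out of the optic lobe 24 h after puparium formation and sequenced their RNA. There were 3 WT samples, whose titles name an FRT40 chromosome, and 3 samples of the genotype dFezf1, an allele of the transcription factor gene dFezf, also called earmuff (erm). The driver that labelled the cells, the chromosome that carries dFezf1 and the sex of the animals are not given in the sources used here. Title dates fall in November for WT and in December for dFezf1, so title date and genotype cannot be told apart. Here the comparison asks how L3 neurons that carry dFezf1 differ from WT in the transcripts of these guidance genes.

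Semaphorins are ligands that share a sema domain and act as guidance cues for growing axons and dendrites, most often as repellents. Their receptors, the plexins, carry a sema domain outside the cell and a domain that acts on small GTPases inside it. In flies the transmembrane protein Sema1a binds PlexA, and the secreted Sema2a and Sema2b bind PlexB. Sema1a can also act as a receptor itself, a mode called reverse signalling. In the developing medulla, Sema1a in lamina neurons and PlexA on crossing fibres are known to keep lamina growth cones, those of L3 among them, in the outer layers.

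By the authors' deposited table, whose column names are those of DESeq2, none of the 7 genes passed an adjusted p under 0.05. Across all 9387 tested genes the share that passed was 6.82%, so a count of 0 among 7 genes is no result about the family. None had an unadjusted p under 0.05 either, where 14.2% of tested genes did. A stricter rule also asks the 95% interval of the fold change to exclude 0, which 3.82% of tested genes met. It only narrows the rule of an adjusted p under 0.05, so no member could pass it. Some deposited changes and errors were shrunken, so that interval can include 0 for a gene with a small p. The transcripts of 6 of the 7 were well detected in both genotypes, with mean normalized counts over all libraries from 869 for Sema2a to 24257 for Sema1a in the authors' deposited table. Sema5c was not, at a mean normalized count of 0.676. Sema2b had the smallest p of the family, 0.0655 unadjusted and 0.392 adjusted, in the authors' deposited table. For a bulk sample of sorted cells, fewer cells of a type and less RNA per cell cannot be told apart.

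Levels are given as the authors' mean abundance of each genotype, a value whose unit is not stated. It behaves as a value per length. Dividing mean normalized count by these means gave a ratio whose Spearman correlation with annotated exon length was 0.951 across 5782 genes, which are not independent replicates. Levels can therefore be set side by side between genes, but the means carry no spread of their own, and whether neighbours in the order differ was not tested. In WT the order in the authors' deposited table was Sema1a, Sema2b, PlexB, PlexA, Sema1b, Sema2a and Sema5c. In dFezf1 it was the same except that Sema1b and PlexA exchanged places.

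**Figure D1:**
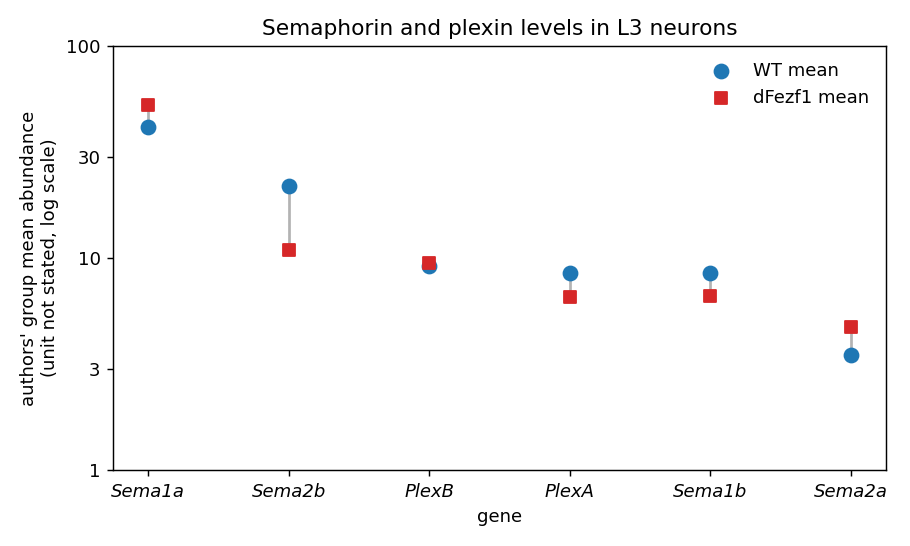
Authors' mean abundance (log scale, unit not stated) of 6 genes in WT (blue circles) and dFezf1 (red squares), ordered by the WT mean; Sema5c, listed at 0 in WT, is left out, and no error bar can be drawn. Sema1a is highest in both genotypes, and the widest gap is that of Sema2b, from 21.9 in WT to 10.9 in dFezf1.

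Sema1a encodes the transmembrane semaphorin that binds PlexA. In the annotation of build BDGP6 the gene (FBgn0011259) lies on the plus strand of chromosome 2L from 8542147 to 8672041, a span of which exons cover 7.84%. The authors' mean was 41.5 for WT, above 93.3% of tested genes, and 52.8 for dFezf1. The authors' deposited table gave Sema1a a log2 fold change of 0.42 ± 0.32 (SE, adjusted p = 0.623). The 95% interval ran from 0.860-fold to 2.08-fold. The tRNA genes, the non-coding RNA gene and the transposon annotated within Sema1a share no exon with it.

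Sema1b, a transmembrane paralogue, stood far lower. The gene (FBgn0016059) lies on the minus strand of chromosome 2R from 17672839 to 17683499, with 3 annotated transcripts that encode proteins of one length, 770 residues. Authors' means were 8.50 in WT and 6.63 in dFezf1. In WT the Sema1a mean was 4.88 times the Sema1b mean, and in dFezf1 it was 7.96 times. The authors' deposited table put the log2 fold change of Sema1b at -0.37 ± 0.44 (SE, adjusted p = 0.798), with an interval from 0.426-fold to 1.41-fold.

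The secreted ligands Sema2a and Sema2b lie on the plus strand of chromosome 2R, 68.4 kb apart, with 11 protein-coding genes wholly between them. Sema2b (FBgn0264273, 16386524 to 16431758) had authors' means of 21.9 in WT and 10.9 in dFezf1. The dFezf1 mean was thus 0.498 of the WT mean, the widest gap among the 6 genes detected in both genotypes. The log2 fold change fitted in the authors' deposited table was narrower, -0.72 ± 0.39 (SE). Its 95% interval ran from 0.358-fold to 1.03-fold and so just included no change. By p, Sema2b ranked at position 1568 among the 9387 tested genes of the authors' deposited table. The protein-coding genes Menl-1 and Menl-2 lie within Sema2b on the opposite strand and share no exon with it. Only Menl-2 was listed, at authors' means of 0.404 in WT and 0.00945 in dFezf1 (adjusted p = 0.535 in the authors' deposited table).

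Sema2a (FBgn0011260, 16500178 to 16533459) was the lowest of the genes detected in both genotypes. The authors' means were 3.49 for WT and 4.73 for dFezf1. For Sema2a the authors' deposited table listed a log2 fold change of 0.26 ± 0.56 (SE, adjusted p = 0.911), the least precise estimate among the 6 well-detected genes, with an interval from 0.557-fold to 2.57-fold. The Sema2b mean was 6.27 times that of Sema2a in WT and 2.31 times in dFezf1. That narrowing was not tested.

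Sema5c encodes a transmembrane semaphorin with thrombospondin repeats. It was listed at 0 in WT and at an authors' mean of 0.00838 in dFezf1. The gene (minus strand of chromosome 3L, 12067511 to 12081830) carries an older identifier, FBgn0250876, in the authors' deposited table and FBgn0284221 in the annotation, and both give the same start and end. Its deposited adjusted p of 0.804 rests on almost no reads and says nothing about a change. At this depth Sema5c was not detectable in WT.

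Both plexin genes lie on the minus strand of chromosome 4, the small heterochromatin-rich chromosome, 966.1 kb apart. PlexA (FBgn0025741, 1009895 to 1027101) encodes the receptor of Sema1a. Its authors' mean was 8.52 in WT and 6.54 in dFezf1. For PlexA the authors' deposited table listed a log2 fold change of -0.19 ± 0.35 (SE, adjusted p = 0.880). The interval ran from 0.546-fold to 1.40-fold. Of its annotated exon sequence, 519 bases are also annotated as an INE-1 transposon insertion, and INE-1 has many copies in the genome, so the assignment of reads from that stretch is uncertain.

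PlexB (FBgn0025740, 32478 to 43778) encodes the receptor of the secreted ligands, a protein of 2051 residues. The authors' means were 9.16 for WT and 9.49 for dFezf1, the closest pair of means among the 6 genes. The authors' deposited table put its log2 fold change at 0.28 ± 0.39 (SE, adjusted p = 0.826), with an interval from 0.719-fold to 2.06-fold. An antisense RNA gene shares 388 exonic bases with PlexB. Since the labels do not state whether reads were counted by strand, reads of the 2 cannot be told apart there. The PlexB mean was 1.07 times the PlexA mean in WT and 1.45 times in dFezf1. L3 neurons thus held transcripts of both plexins at similar authors' means in WT.

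By family, the semaphorin genes summed higher than the plexin genes in these samples. This is no split into ligands and receptors, since Sema1a, which can also act as a receptor, is counted with the semaphorins. The 5 semaphorins summed to an authors' mean abundance of 75.4 in WT and 75.1 in dFezf1, and the 2 plexins to 17.7 and 16.0. Within the semaphorin sum Sema1a held 55.0% in WT and 70.3% in dFezf1, while Sema2b held 29.1% and 14.5%. The sums were close although the shares of these 2 genes moved apart. These shares come from the authors' means, have no error and were not tested.

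The precision of the comparison sets what the absence of calls can show. In the authors' deposited table, standard errors of the 6 well-detected genes ran from 0.32 to 0.56 on the log2 scale. Between the mean normalized counts of Sema2a and Sema1a lay 2143 tested genes, 148 of them called. The smallest change called among them was 0.81 on the log2 scale in either direction, and 0 calls were smaller than the change of Sema2b. Changes of the size seen in these genes were therefore below those called at their read level. A p above the threshold does not show that the levels were the same.

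**Figure D2:**
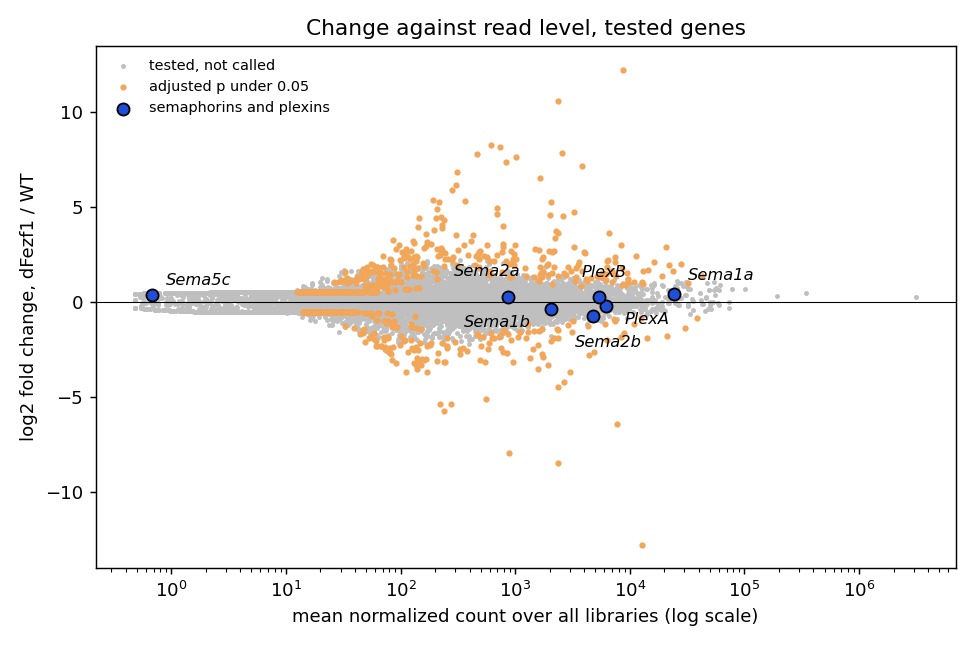
Log2 fold change of dFezf1 against WT for 9387 tested genes, from the authors' deposited table, against mean normalized count (log scale); orange points passed an adjusted p under 0.05 and blue points are the semaphorins and plexins. Sema1a, Sema1b, Sema2a, Sema2b, PlexA and PlexB sit at high counts, between -0.72 (Sema2b) and 0.42 (Sema1a), and Sema5c sits at the left edge.

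The family shares one label of the deposited annotation, the category of cell surface genes, which held 931 genes of which 644 were tested. An adjusted p under 0.05 was reached by 16.6% of the tested cell surface genes, by the authors' deposited table. Of these, 67 genes (10.4% of the category's tested genes) were higher in dFezf1 and 40 (6.21%) lower. None of the 7 semaphorin and plexin genes was among these 107. By authors' mean abundance Sema1a ranked at position 21 of the category in both genotypes. Sema2b ranked at position 49 in WT and 85 in dFezf1. PlexB, PlexA and Sema1b ranked at positions 105, 113 and 115 in WT.

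**Figure D3:**
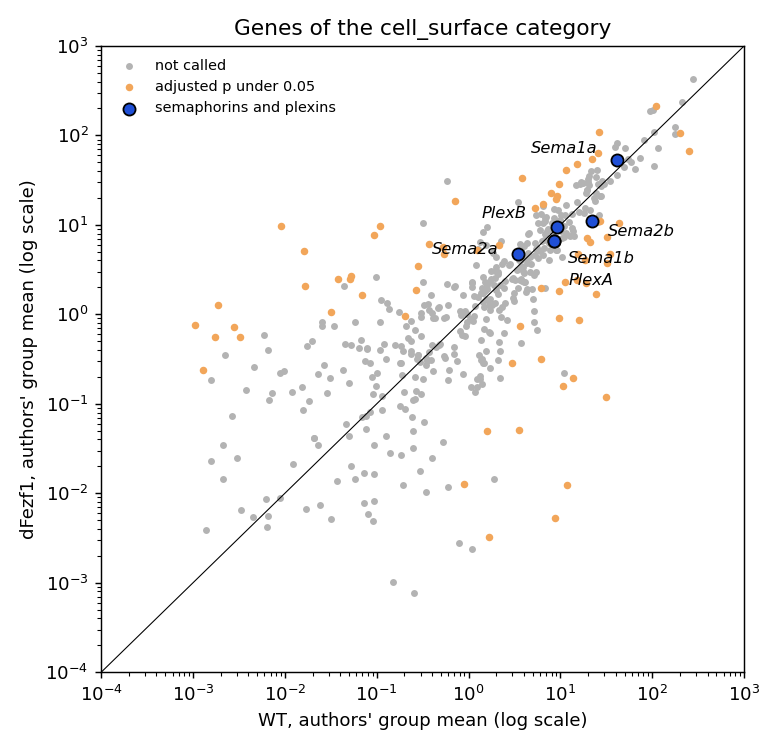
Authors' mean abundance in dFezf1 against WT (both log scales, unit not stated) for the 492 cell surface genes above 0 in both genotypes; 439 others are not drawn, the line marks equal means, orange marks an adjusted p under 0.05 and blue the semaphorins and plexins. Sema2b lies farthest below the line among the 6 blue points, which otherwise stay near it.

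Proteins that act with semaphorins and plexins were counted from a list of 23 symbols, 22 of which were matched and tested. By the authors' deposited comparison, a table of dFezf1 against WT, 3 of the 22 were higher and none lower, where 4.33% of all tested genes were higher and 2.49% lower. The median log2 fold change of the list was 0.07, against 0.03 over all tested genes. The 3 are Moe, RhoGEF64C and pbl, all in the group of GTPases, their regulators and actin effectors, which had 13 tested members.

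Moe encodes moesin, which ties actin to the plasma membrane. Its authors' mean was 27.6 in WT and 69.8 in dFezf1. By the authors' deposited table Moe rose by 1.33 ± 0.38 (SE) in log2 units (adjusted p = 0.00861). RhoGEF64C encodes an exchange factor for small GTPases. Its authors' mean was 0.00142 in WT and 1.34 in dFezf1, and the authors' deposited table gave a log2 fold change of 1.64 ± 0.78 (adjusted p = 0.00133). The dFezf1 mean was 947 times a WT mean close to 0, so the deposited change is far smaller than the gap between the means. The test statistic of RhoGEF64C there was 4.04, so its interval and p do not rest on the same values. pbl encodes the exchange factor Pebble, reported downstream of Sema1a reverse signalling in motor axons. It was listed at 0 in WT and at an authors' mean of 0.167 in dFezf1, and its deposited adjusted p was 5.43e-07. The log2 fold change of pbl in the same authors' deposited table was 0.54 ± 0.59, an interval that includes 0. Its test statistic there was 5.76, so interval and p do not rest on the same values, and the interval is no check on the call. Where genes at 0 in a group were left out pbl was no longer tested, which left 2 of 20 called, Moe and RhoGEF64C. RhoGEF64C stayed in only through its WT mean of 0.00142.

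The partners most abundant in WT were 14-3-3epsilon, an adaptor protein gene, the cofilin gene tsr and the GTPase gene Rho1. Their authors' means in WT were 886, 299 and 32.9, and none passed, with adjusted p of 0.609, 0.759 and 0.948 in the authors' deposited table. Mical, which encodes an actin-oxidizing enzyme that binds PlexA, had authors' means of 4.94 in WT and 5.01 in dFezf1. Its log2 fold change was 0.12 ± 0.53 (adjusted p = 0.967) in the authors' deposited table. Of the 6 plexin-bound proteins and their partners, 4 had a positive change and 2 a negative one. Only the kinase gene Abl among these 6 had an unadjusted p under 0.05 in the authors' deposited table, 0.0259 (adjusted p = 0.240). The log2 fold change of Abl there was 0.92 ± 0.41, and its authors' means were 20.9 in WT and 37.1 in dFezf1. RhoGAPp190, a GTPase-activating protein gene reported in the same reverse-signalling pathway as pbl, had a log2 fold change of 0.53 ± 0.45 (adjusted p = 0.663) in the authors' deposited table. The receptor-side genes otk and Gyc76C, both reported to act in semaphorin signalling, differed in level, at authors' WT means of 11.0 and 0.00786. Neither passed, at adjusted p of 0.659 and 0.768 in the authors' deposited table.

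**Figure D4:**
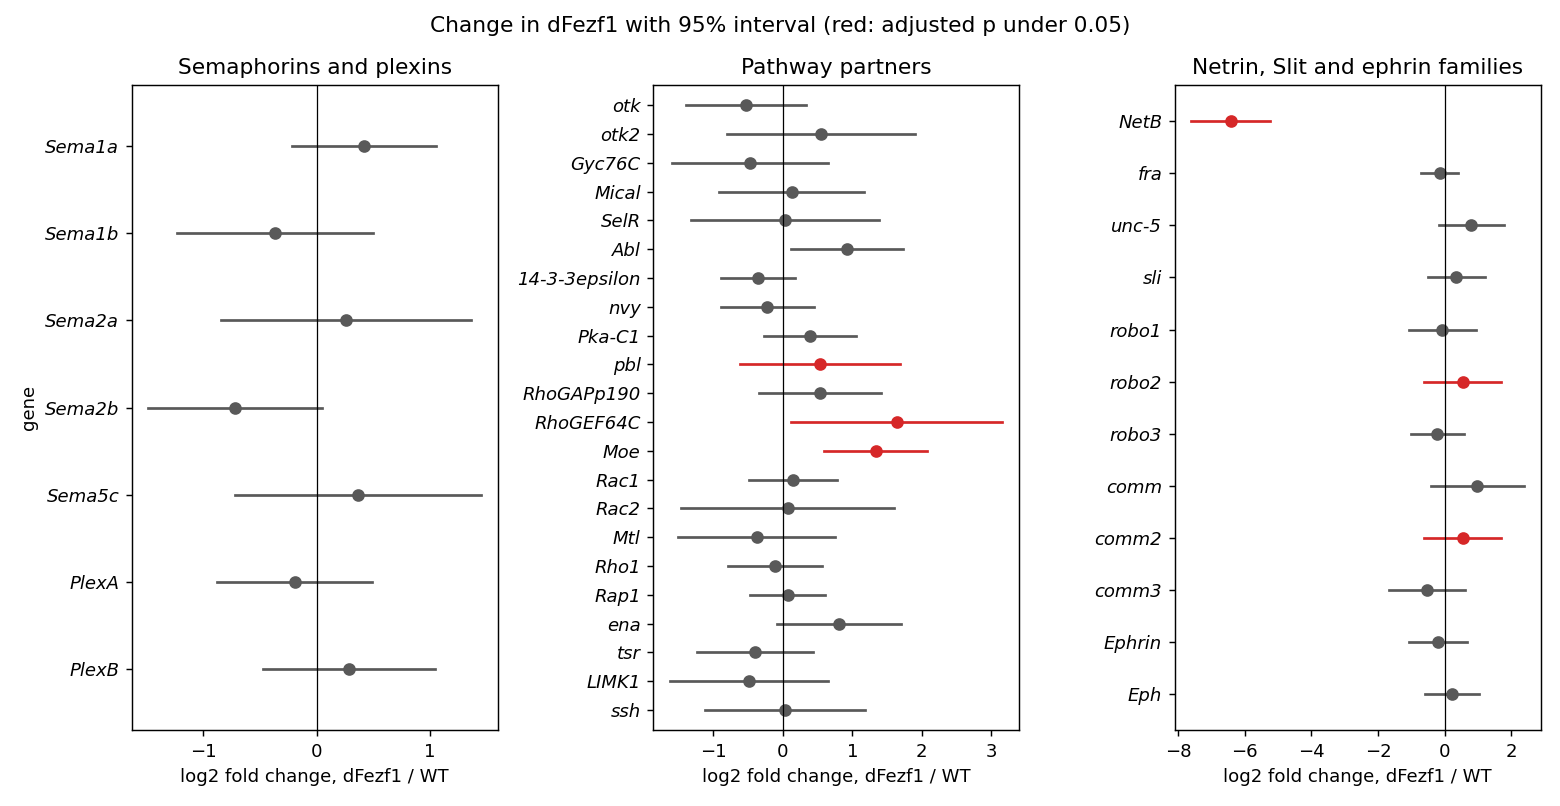
Log2 fold change of dFezf1 against WT with its 95% interval, from the authors' deposited table, for 7 semaphorins and plexins, 22 partners and 12 genes of the netrin, Slit and ephrin families, with a separate horizontal scale in each panel; red marks an adjusted p under 0.05. Each interval in the first panel includes 0, and the red genes are pbl, RhoGEF64C and Moe among the partners and NetB, robo2 and comm2 among the other families.

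Other guidance families offer a scale for these values. Of 12 tested genes of the netrin, Slit and ephrin families, the authors' deposited table had 1 lower and 2 higher in dFezf1, where 2.49% of all tested genes were lower and 4.33% higher. The netrin ligand gene NetB went from an authors' mean of 31.5 in WT to 0.119 in dFezf1, so in WT it lay between Sema1a and Sema2b. Its log2 fold change was -6.43 ± 0.60 in the authors' deposited table, while the larger change of Sema1a and Sema2b was that of Sema2b, -0.72 ± 0.39. The Slit receptor gene robo2 and the commissureless gene comm2 were listed at 0 in WT, at authors' means of 0.151 and 0.654 in dFezf1. Their intervals in the authors' deposited table, both from -0.61 to 1.69 on the log2 scale, include 0. Their test statistics there were 5.76 and 5.66, so interval and p do not rest on the same values, and the intervals are no check. Neither gene was tested where genes at 0 in a group or with a mean normalized count under 100 were left out. That left NetB as the 1 call. The commissureless gene comm was not called (adjusted p = 0.229 in the authors' deposited table), although its authors' mean was 0.579 in WT and 31.0 in dFezf1. A difference between these families and the semaphorins was not tested.

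The identity of the cells was checked against marker genes fixed by list. In the authors' deposited table erm, the defining marker of L3, had authors' means of 55.1 in WT and 49.2 in dFezf1 (adjusted p = 0.986), so its level does not check the genotype labels. The lamina genes dac and sim were present at 26.9 and 10.6 in WT and at 17.6 and 9.90 in dFezf1, but eya stood at 0.108 and 0.0101. None of these 3 passed, and their sum was 37.6 in WT and 27.5 in dFezf1. The 4 neuronal markers summed to 165 in WT and 268 in dFezf1, and the 8 glial markers to 2.82 and 9.21, with none of either list called. All 4 neuronal log2 fold changes were positive in the authors' deposited table, 3 with an unadjusted p under 0.05. Of the 8 glial ones, 6 were positive and 2 negative, and 1 of the 8 had an unadjusted p under 0.05. In the glial sum the authors' mean of Gs2 was 0.262 in WT and 4.08 in dFezf1 and that of nrv2 0.894 and 2.55, while wrapper (0.343 and 0.273) and Eaat1 (0.227 and 0.126) were lower in dFezf1. The 6 markers of other lamina neurons summed to 0.433 in WT and 2.72 in dFezf1, with 1 called, the L1 marker svp. The photoreceptor genes ninaE and trp were at 0 in both genotypes, and the sum over 6 photoreceptor markers, 9.67 in WT and 16.6 in dFezf1, was nearly all norpA, at 9.55 and 15.9. The 5 progenitor markers summed to 0.0384 in WT and 0.807 in dFezf1, and the 4 haemocyte markers to 0.00788 and 0.0105. Of the progenitor markers gcm was called, but it was listed at 0 in WT. It was not tested where genes at 0 in a group were left out. Its interval from -0.61 to 1.69 in the authors' deposited table includes 0. With a test statistic of 5.73 there, the interval and p of gcm do not rest on the same values. In all, 2 of 30 tested markers were called, against 6.82% of all tested genes. The part of these shifts in the values above was not tested.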

How the data were processed

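L3 neurons were sorted from optic lobes, and libraries were made with Smart-seq2 and Nextera reagents, per the labels' protocols. Each genotype had 3 biological replicates, and the design text says that all libraries were prepared and sequenced at one time. FastQC, STAR, Salmon, DESeq2 and build BDGP6 appear in the submitters' processing notes, without versions or roles. Per the file headers, the authors' deposited comparison holds a mean normalized count, which is a signal, a log2 fold change with its standard error, a test statistic, which is a score, p-values and adjusted p-values. Per the file headers it also gives a mean for wt and for mutant, a signal of unstated unit. At least part of the deposited fold changes were shrunken: in 3798 of 9755 genes with a p-value, 1 member (Sema5c) among them, the change divided by its error differs from the statistic by 1% or more. This comparison cannot show that a change was not shrunken, since a change and its error can shrink together. Changes and intervals of the other members may therefore be shrunken too.

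A further 12 columns of values per library, over 2 tables, have names found in no sample's labels. Columns were tied to samples by name alone, so these were not used. No depth, replicate spread or edgeR fit from counts is therefore given, and the planned test was the authors' own comparison.

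Members were matched by gene identifier (6) or deposited symbol (Sema5c). Calls required an adjusted p under 0.05. Intervals are normal 95% intervals from the deposited error. For alternatives, p-values were adjusted again by the Benjamini-Hochberg method, tested on simulated data (Python 3.11.15, pandas 2.3.3, numpy 2.4.6, SciPy 1.17.1). Positions are from the BDGP6 annotation. Members and lists were chosen with earlier results of these data known. Named genes were the members, erm, called partners and guidance genes, the 3 partners highest in WT, and overlapping genes. Mical, RhoGAPp190, otk and Gyc76C were added for their role, Abl for its p, and comm and marker genes for their level, after values were seen. No genes of similar pattern are named, since 2 group means cannot rank patterns.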

Additional observations from a re-analysis of the deposited data

How the results depend on the processing

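The count of 0 called semaphorins and plexins was the same under the 5 alternatives run, but none of them could have changed it. P-values were adjusted again for a mean normalized count of at least 100, no low-count filter and genes above 0 in both groups. The smallest unadjusted p of a member in the authors' deposited table, 0.0655 for Sema2b, exceeds 0.05, and adjustment cannot lower it. The remaining alternatives, an adjusted p under 0.01 and an interval that excludes 0, only narrow the main rule. Over the deposited and re-adjusted values the adjusted p of Sema2b ranged from 0.392 to 0.508. Every member kept its direction in the log2 ratio of group means at pseudocounts of 0.1 and 1. Sizes moved: PlexB went from 0.28 to 0.05 and 0.05, PlexA from -0.19 to -0.38 and -0.34, and Sema5c from 0.36 to 0.12 and 0.01, each by less than its standard error. The partners called were 2 or 3 in each. The other guidance families went from 3 calls to 1 with the minimum mean normalized count of 100, above 0 in both groups and where the interval excludes 0, alternatives chosen after seeing the data. All called genes went from 640 to 297, 254 and 359 under the same 3 settings, which test fewer genes or add a criterion. Leaving out single libraries, edgeR and DESeq2 were not run, since columns were tied to samples by name alone and the library columns' names match no label. No paired analysis was possible because the columns carry no replicate number. Depth per library was not used here, and its absence limits what Sema5c can show.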
